A study of Rattus norvegicus with 16 samples.

Results

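Aminoacyl-tRNA synthetases are the enzymes that join each amino acid to its tRNA, and their messenger RNAs were followed in rat liver under general anesthesia with or without sepsis. The members were taken from a list of 36 gene symbols, of which 34 were among the 17055 gene symbols of the count data. They comprised all 20 of the genes listed as cytosolic and 14 of the 16 listed as mitochondrial. Iars2 and Mars2, of the mitochondrial list, were not analysed here. The symbols follow the older style in which the cytosolic enzyme is written without a number (Wars) and the mitochondrial enzyme with the ending 2 (Wars2). All 34 had enough counts to be tested in every comparison.

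Liver RNA came from 48 male Sprague-Dawley rats aged 10 weeks, in 4 groups of 12, and was sequenced as 16 libraries that were each a pool of 3 rats. In the Isoflurane-Sepsis group (libraries 1 to 4) and the Isoflurane-Control group (libraries 5 to 8), anesthesia was started and kept up with isoflurane, an inhaled anesthetic. In the Propofol-Sepsis group (libraries 9 to 12) and the Propofol-Control group (libraries 13 to 16), it was started with ketamine and xylazine and kept up with propofol, an intravenous anesthetic. Sepsis was produced by cecal ligation and puncture (CLP), in which the cecum is tied off and perforated so that its contents leak into the abdomen, and controls had the cecum lifted out and put back. All rats, controls included, were ventilated with oxygen under anesthesia for 8 h after the abdomen was opened, so every group carries the surgery and the long anesthetic. The anesthetic goes together with the induction drugs and with a separate series of library names, and these cannot be told apart.

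Each tRNA has to be charged with its amino acid before a ribosome can use it, so the cytosolic enzymes serve the translation of nuclear genes and the mitochondrial enzymes serve the few proteins encoded by mitochondrial DNA, all of them subunits of oxidative phosphorylation. The mitochondrial enzymes are themselves encoded in the nucleus and imported. Gars and Kars supply both compartments from a single gene. The cytosolic enzymes for glutamate and proline (a single protein, Eprs), isoleucine, leucine, methionine, glutamine, arginine, lysine and aspartate assemble with scaffold proteins into the multisynthetase complex. In the liver, which makes most plasma proteins, many cytosolic synthetase genes are known targets of ATF4, the transcription factor of the amino acid response, and Wars is known to be induced by interferon gamma.

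Levels are given as CPM, which scales a gene's reads by the library's total over genes and by its TMM factor but not by gene length, so levels of different genes are not compared. The libraries held between 14199422 and 49937173 reads on genes. Reads on no gene were more frequent in every sepsis library (23.13% to 25.39% under isoflurane, 22.25% to 23.26% under propofol) than in its controls (22.4% to 22.95% and 21.61% to 22.14%). The 8 hepatocyte markers, among them Alb, summed to between 95780 and 151500 CPM, and none of them was at 0. Within each anesthetic, sepsis was set against control by edgeR's quasi-likelihood test, 4 libraries against 4, with Benjamini-Hochberg adjustment over all genes tested, and a gene was called at an adjusted p below 0.05. The log2 fold change is of sepsis over control, and its error is the standard error of the fit (SE). The p-values measure the spread between pools, not between single rats.

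Under isoflurane the mitochondrial synthetases were lower in sepsis while the cytosolic ones went both ways. Of the 14 mitochondrial members 8 were called lower and 0 higher, and 13 of 14 had a log2 fold change below 0, with a median of -0.45. Of the 20 cytosolic members 3 were called higher and 3 lower, with 10 on either side of 0 and a median of -0.02. That median ran from -0.0764 without library 2 to 0.0342 without library 3 and was 0.0042 without library 4, so its sign rests on single libraries. Farsa, Kars, Lars, Nars and Qars, all near 0, moved below it when totals alone scaled the libraries. Over the 10361 genes tested 25.7% were called higher and 24.4% lower, and the median log2 fold change was 0.01. Every Isoflurane-Sepsis library lay below every Isoflurane-Control library for 11 of the 14 mitochondrial and 3 of the 20 cytosolic members, against 25.4% of all genes tested. Every sepsis library lay above every control library for 0 mitochondrial and 2 cytosolic members, against 23.4% of all genes. Without library 5, or without library 6, 9 members were called in place of 14, and 1 cytosolic member was called higher in place of 3. Those fits had fewer libraries to test with, and the share of all genes called in them is not given here. When totals alone scaled the libraries, 17 members were called, 12 of them mitochondrial members called lower in place of 8. That scaling also moved the median of all genes down, to -0.0613, and the share of all genes called with it is not given here.

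Under propofol the mitochondrial members again lay below their controls, with a median nearer to 0, and the cytosolic members called lower outnumbered those called higher. Of the 14 mitochondrial members 5 were called lower and 0 higher, and 14 of 14 had a log2 fold change below 0, with a median of -0.30. Of the 20 cytosolic members 3 were called higher and 6 lower, 15 lay below 0, and the median was -0.16. Over the 10348 genes tested 20.4% were called higher and 21.7% lower, with a median of -0.0016. Every Propofol-Sepsis library lay below every Propofol-Control library for 6 of 14 mitochondrial and 6 of 20 cytosolic members, against 21.4% of all genes tested, and above every control library for 0 and 2 members, against 20.1%. When totals alone scaled the libraries, 1 member was called higher and 16 lower, where TMM scaling gave 3 and 11. The median of all genes then moved down too, to -0.0558, and the share of all genes called is not given here. Without library 14, 9 members were called in place of 14, and without library 11, 12, 14 or 15 the cytosolic members called higher numbered 1 in place of 3. For these smaller fits, too, the share of all genes called is not given here.

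**Figure D1:**
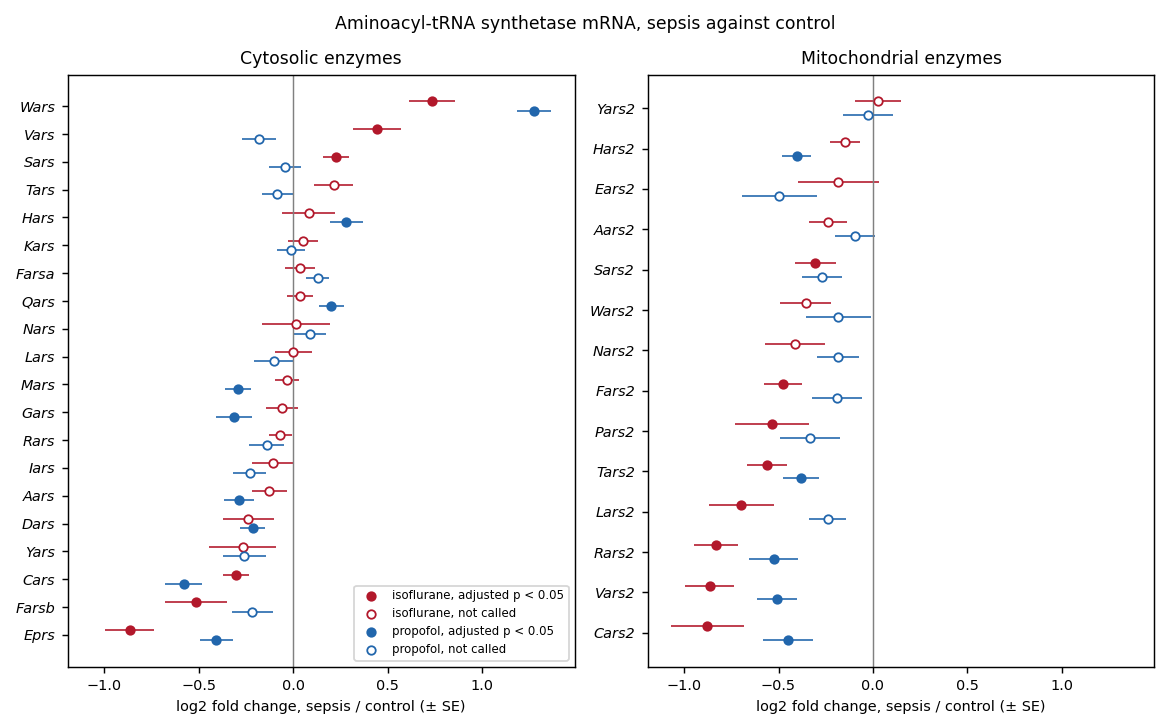
Log2 fold change of sepsis over control for the 20 cytosolic members (left) and the 14 mitochondrial members (right), with isoflurane in red, propofol in blue, bars for ± SE, and filled points for an adjusted p below 0.05. Wars lies farthest to the right under both anesthetics (0.73 and 1.28), and all mitochondrial points but that of Yars2 under isoflurane (0.03, and -0.04 when totals alone scaled the libraries) lie left of 0.

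Wars, which charges tRNA with tryptophan, was the member raised most under both anesthetics. Its level in the Isoflurane-Sepsis libraries was 309, 255, 195 and 254 CPM, against 168, 150.0, 147 and 150.3 in Isoflurane-Control. In the Propofol-Sepsis libraries it was 206, 197, 238 and 237 CPM, against 104, 80.95, 84.6 and 94.3 in Propofol-Control. Each sepsis library lay above all 4 of its controls under either anesthetic. The log2 fold change was 0.73 ± 0.12 (SE), adjusted p = 0.00148 under isoflurane, and 1.28 ± 0.092 (SE), adjusted p = 2.41e-05 under propofol. The order of the group means was Propofol-Control (90.9 CPM), Isoflurane-Control (154), Propofol-Sepsis (219.6) and Isoflurane-Sepsis (253), and of these neighbours the 2 sepsis groups overlapped in range. Wars2, its mitochondrial counterpart, was at 4.07, 3.23, 4.50 and 3.95 CPM in Isoflurane-Sepsis and 5.74, 4.58, 4.95 and 5.19 in Isoflurane-Control. All 4 of these sepsis libraries were below all 4 controls, but the adjusted p of 0.0519 missed the threshold.

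Vars and Sars, the cytosolic enzymes for valine and serine, were called higher under isoflurane and lay slightly below 0 under propofol. Vars stood at 58.99, 78.8, 70.3 and 50.4 CPM in Isoflurane-Sepsis and 44.6, 46.1, 49.3 and 52.1 in its controls. Library 4 was within the range of the controls and the other 3 sepsis libraries were above it (log2 fold change 0.44 ± 0.13 (SE), adjusted p = 0.019). Under propofol Vars was at 76.9, 65.4, 83.9 and 80.1 CPM in sepsis and 90.5, 81.1, 97.8 and 78.1 in controls, with overlapping groups and a log2 fold change of -0.18 ± 0.089 (SE), adjusted p = 0.13. The Propofol-Control mean of 86.9 CPM was above that of Isoflurane-Sepsis, 64.6, so the isoflurane rise began from the lowest of the 4 group means, 48.01 in Isoflurane-Control. Without library 5 or library 6 the isoflurane call for Vars was lost, at adjusted p = 0.0572 and 0.0522. Sars was at 140.5, 154, 135 and 126 CPM in Isoflurane-Sepsis and 123, 118, 118 and 121 in its controls, so that the groups did not overlap. Its log2 fold change was 0.23 ± 0.070 (SE), adjusted p = 0.0249, and the call was lost in 7 of 15 alternative analyses, among them those without library 2, 5, 6, 7 or 8 (adjusted p of 0.0541 to 0.0723). In the Propofol-Sepsis libraries Sars was at 129, 121, 152 and 152 CPM and in Propofol-Control at 150.2, 141, 153 and 128, with overlap and a log2 fold change of -0.04 ± 0.086 (SE), adjusted p = 0.711.

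Hars and Qars, for histidine and glutamine, were the other cytosolic members called higher under propofol. Hars was at 113, 97.9, 129.8 and 124 CPM in Propofol-Sepsis and 102, 87.7, 94.96 and 97.9 in controls, where only library 10 fell within the control range. Its log2 fold change was 0.28 ± 0.085 (SE), adjusted p = 0.0238. In Isoflurane-Sepsis Hars was at 118, 108, 72.5 and 81.2 CPM in libraries 1 to 4, on both sides of its controls at 97.7, 88.97, 91.9 and 83.3, with a log2 fold change of 0.08 ± 0.14 (SE), adjusted p = 0.653. Qars, a member of the multisynthetase complex, was at 79.6, 77.5, 90.7 and 85.4 CPM in Propofol-Sepsis and 77.05, 72.02, 68.3 and 72.9 in controls. All 4 sepsis libraries were above all 4 controls, and the log2 fold change was 0.20 ± 0.065 (SE), adjusted p = 0.0321. Under isoflurane Qars was at 80.3, 76.7, 66.2 and 76.8 CPM against 73.3, 75.6, 73.6 and 73.3, with overlap and a log2 fold change of 0.04 ± 0.069 (SE), adjusted p = 0.689. Each of these 2 propofol calls was lost in 7 of 15 alternatives, with adjusted p up to 0.0827 for Hars and 0.107 for Qars. Leaving out library 11, 12, 14 or 15 was enough to lose either (adjusted p of 0.0543 to 0.0722 for Hars and 0.0673 to 0.0938 for Qars), and leaving out library 16 lost Qars (0.0608).

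Eprs, the bifunctional enzyme that charges both glutamate and proline tRNAs and forms part of the multisynthetase complex, was called lower under both anesthetics. It was at 1101, 984, 806 and 683 CPM in Isoflurane-Sepsis and 1642, 1563, 1748 and 1621 in its controls. In the Propofol-Sepsis libraries it was at 1137, 894, 1213 and 1189 CPM, and in Propofol-Control at 1428, 1497, 1565 and 1388. Neither sepsis group overlapped its controls, and library 10 was the lowest of the propofol libraries. The log2 fold change was -0.87 ± 0.13 (SE), adjusted p = 0.000905 under isoflurane and -0.41 ± 0.088 (SE), adjusted p = 0.00497 under propofol. In summed CPM over the 20 cytosolic members, which Eprs weighs on more than any other member, Isoflurane-Sepsis had between 2986 and 3984 and Isoflurane-Control between 4022 and 4323, and the propofol groups had between 3378 and 4371 and between 4302 and 4879.

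Cars, the cytosolic cysteine enzyme, was also called lower under both. Its levels were 56.8, 56.9, 53.4 and 57.3 CPM in Isoflurane-Sepsis and 70.5, 64.02, 76.05 and 69.4 in Isoflurane-Control. They were 61.4, 55.5, 67.1 and 71.9 CPM in Propofol-Sepsis and 89.1, 98.7, 109.9 and 85.4 in Propofol-Control. The sepsis libraries were below all their controls in both cases, with log2 fold changes of -0.30 ± 0.068 (SE), adjusted p = 0.0061, and -0.58 ± 0.10 (SE), adjusted p = 0.00126, in that order. Mars, the methionine enzyme of the complex, was at 149.9, 129, 157 and 157 CPM in Propofol-Sepsis and 181, 181, 192 and 172 in Propofol-Control, without overlap (log2 fold change -0.29 ± 0.070 (SE), adjusted p = 0.00819). Under isoflurane its values, 125, 130.5, 116 and 115 CPM in sepsis and 129, 119, 129 and 128 in controls, overlapped, with a log2 fold change of -0.03 ± 0.065 (SE), adjusted p = 0.695. Farsb, the beta subunit of the cytosolic phenylalanine enzyme, was called lower under isoflurane at -0.51 (adjusted p = 0.0263), while Farsa, the alpha subunit of the same enzyme, was at 0.04 (adjusted p = 0.708). The Farsb call was lost without library 3, 4, 5, 6 or 7 (adjusted p of 0.0506 to 0.0672). Aars, Gars and Dars, for alanine, glycine and aspartate, were called lower under propofol, at -0.29, -0.31 and -0.21. The Gars call was lost without library 9, 14 or 15 (adjusted p up to 0.0663) and the Dars call without library 11, 14 or 15 (up to 0.062) and in 2 other alternatives.

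The 8 other cytosolic members, Farsa among them, passed the test in neither sepsis comparison. Their log2 fold changes were 0.05 and -0.01 for Kars (lysine, isoflurane then propofol), 0.00 and -0.10 for Lars (leucine), -0.11 and -0.23 for Iars (isoleucine), and -0.07 and -0.14 for Rars (arginine). They were 0.02 and 0.09 for Nars (asparagine), 0.21 and -0.08 for Tars (threonine), -0.27 and -0.26 for Yars (tyrosine), and 0.04 and 0.13 for Farsa. Several of these had a wide spread within Isoflurane-Sepsis. Nars was at 334, 306, 189 and 192 CPM in libraries 1 to 4, against 263, 244, 268 and 244 in the controls, so libraries 1 and 2 were above all controls and libraries 3 and 4 below them. Of the 8 members of the multisynthetase complex, 0 were called higher and 1 (Eprs) lower under isoflurane, with a median of -0.05, and 1 (Qars) higher and 3 (Eprs, Mars and Dars) lower under propofol, with a median of -0.18. The 12 cytosolic members outside the complex had 3 higher and 2 lower under isoflurane (median 0.03) and 2 higher and 3 lower under propofol (median -0.13). Shares of all genes called higher and lower were 25.7% and 24.4% under isoflurane and 20.4% and 21.7% under propofol. Members inside and outside the complex were not tested against each other.

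**Figure D2:**
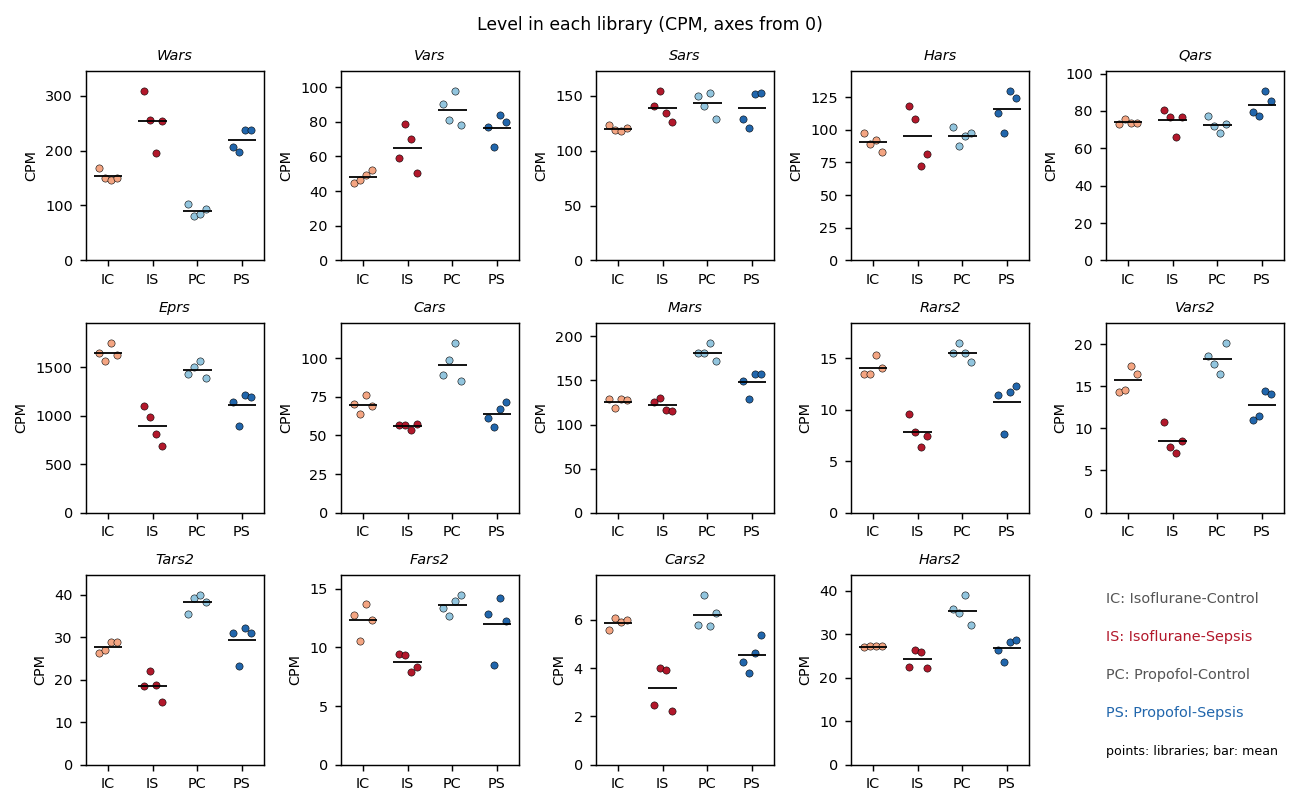
Level in CPM of the 14 members described by library, with a point for each library, a bar for the group mean, and every axis starting at 0 (IC and IS are control and sepsis under isoflurane, PC and PS under propofol). Wars rises from control to sepsis in both pairs, and in the panels of Eprs, Cars, Rars2, Vars2, Tars2, Cars2 and Hars2 the sepsis points lie below the control points in both pairs.

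Rars2 and Vars2, the mitochondrial enzymes for arginine and valine, were the mitochondrial members with the smallest adjusted p under isoflurane. Rars2 was at 9.57, 7.82, 6.41 and 7.42 CPM in Isoflurane-Sepsis and 13.5, 13.4, 15.3 and 14.1 in Isoflurane-Control. It was at 11.4, 7.62, 11.7 and 12.3 CPM in Propofol-Sepsis and 15.5, 16.5, 15.5 and 14.6 in Propofol-Control. Neither pair of groups overlapped, and the log2 fold change was -0.83 ± 0.12 (SE), adjusted p = 0.000631 under isoflurane, and -0.53 ± 0.13 (SE), adjusted p = 0.00946 under propofol. Vars2 was at 10.7, 7.76, 7.08 and 8.54 CPM in Isoflurane-Sepsis, against 14.4, 14.5, 17.4 and 16.5 in controls. Under propofol it was at 10.96, 11.4, 14.4 and 14.1 CPM in sepsis, against 18.6, 17.6, 16.4 and 20.1. Again every sepsis library was below every control, with log2 fold changes of -0.86 ± 0.13 (SE), adjusted p = 0.000901, and -0.51 ± 0.11 (SE), adjusted p = 0.00429.

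Tars2, Fars2 and Cars2, which charge threonine, phenylalanine and cysteine inside mitochondria, were also among the called members. Tars2 was at 18.6, 22.1, 18.8 and 14.8 CPM in Isoflurane-Sepsis and 26.3, 26.9, 28.8 and 28.8 in controls, and the log2 fold change was -0.56 ± 0.11 (SE), adjusted p = 0.00298. In the propofol groups it was at 31.1, 23.2, 32.1 and 30.98 CPM in sepsis and 35.5, 39.2, 39.8 and 38.3 in controls, with a log2 fold change of -0.38 ± 0.094 (SE), adjusted p = 0.00981. The groups were apart in both comparisons, with library 10 the lowest under propofol. Cars2 was at 2.48, 4.01, 3.93 and 2.24 CPM in Isoflurane-Sepsis and 5.56, 6.05, 5.88 and 5.99 in controls, with a log2 fold change of -0.88 ± 0.19 (SE), adjusted p = 0.00544. Under propofol Cars2 was at 4.26, 3.81, 4.63 and 5.37 CPM in sepsis and 5.77, 7.00, 5.75 and 6.28 in controls, with a log2 fold change of -0.45 ± 0.13 (SE), adjusted p = 0.0229. It did not overlap in either comparison, and the propofol call was lost without library 9, 14 or 16 (adjusted p of 0.0541 to 0.0682). Fars2 was at 9.47, 9.38, 7.91 and 8.30 CPM in Isoflurane-Sepsis and 12.8, 10.6, 13.7 and 12.3 in controls, without overlap (-0.48 ± 0.10 (SE), adjusted p = 0.00466). Its propofol groups, at 12.8, 8.53, 14.2 and 12.3 CPM and 13.4, 12.7, 14 and 14.4, overlapped (log2 fold change -0.19 ± 0.13 (SE), adjusted p = 0.267).

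Hars2, the mitochondrial histidine enzyme, was called lower in sepsis under propofol. Under isoflurane it passed the threshold only when totals alone scaled the libraries (adjusted p = 0.0486). That scaling also moved the isoflurane median of all genes down, to -0.0613. It was at 26.4, 23.6, 28.2 and 28.6 CPM in Propofol-Sepsis and 35.8, 34.8, 38.9 and 32.2 in Propofol-Control, without overlap (-0.40 ± 0.077 (SE), adjusted p = 0.00259). In Isoflurane-Sepsis it was at 22.5, 26.4, 25.9 and 22.2 CPM and in Isoflurane-Control at 27.03, 27.2, 27.2 and 27.2, also without overlap, with a log2 fold change of -0.15 ± 0.080 (SE), adjusted p = 0.154. The test of the difference between the anesthetics gave an adjusted p of 0.177. Lars2 (-0.70), Pars2 (-0.53) and Sars2 (-0.30), for leucine, proline and serine, made up the rest of the 8 mitochondrial calls under isoflurane, at adjusted p = 0.0095, 0.0472 and 0.0409. The Pars2 and Sars2 calls were each lost in 8 of 15 alternatives, for Pars2 without any of libraries 2 to 8 (adjusted p of 0.053 to 0.116) and for Sars2 without library 2, 3, 5, 6, 7 or 8 (0.066 to 0.118). Aars2, Ears2, Nars2, Wars2 and Yars2 were called in neither sepsis comparison and had log2 fold changes between -0.41 and 0.03 under isoflurane and between -0.50 and -0.03 under propofol. Ears2 was the member with the lowest counts, at 0.84, 0.71, 1.19 and 1.06 CPM in Isoflurane-Sepsis, and its SE of 0.21 under isoflurane was the widest of the 34.

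The summed level of the 14 mitochondrial members did not overlap between sepsis and control. It was between 105.8 and 126.4 CPM in Isoflurane-Sepsis and between 156.5 and 169.1 in Isoflurane-Control. It was between 132.5 and 173.3 CPM in Propofol-Sepsis and between 196.1 and 202.2 in Propofol-Control. The summed cytosolic level also did not overlap under isoflurane, at up to 3984 CPM in sepsis and at least 4022 in controls. Under propofol it did, at up to 4371 CPM in sepsis and at least 4302 in controls. Of all genes tested singly, 25.4% under isoflurane and 21.4% under propofol had every sepsis library below every control library. Library by library, the median log2 difference of the mitochondrial members from the mean of their controls was -0.33, -0.40, -0.56 and -0.49 in libraries 1 to 4, and -0.24, -0.57, -0.29 and -0.15 in libraries 9 to 12. For the cytosolic members it was 0.04, 0.09, -0.24 and -0.16 in libraries 1 to 4, and -0.14, -0.39, -0.06 and -0.02 in libraries 9 to 12. Libraries 3 and 4 were thus the lowest of Isoflurane-Sepsis, and library 10 the lowest of Propofol-Sepsis, in both compartments. These 3 libraries also had the largest share of reads on no gene in their groups (25.39%, 24.45% and 23.26%). Their summed neutrophil and monocyte markers were likewise the highest of their groups (129.3, 113.3 and 62.65 CPM). The part of either in the synthetase values was not tested. Without library 10 the mitochondrial median under propofol was -0.25 and the cytosolic median -0.09, and the number of members called was still 14.

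**Figure D3:**
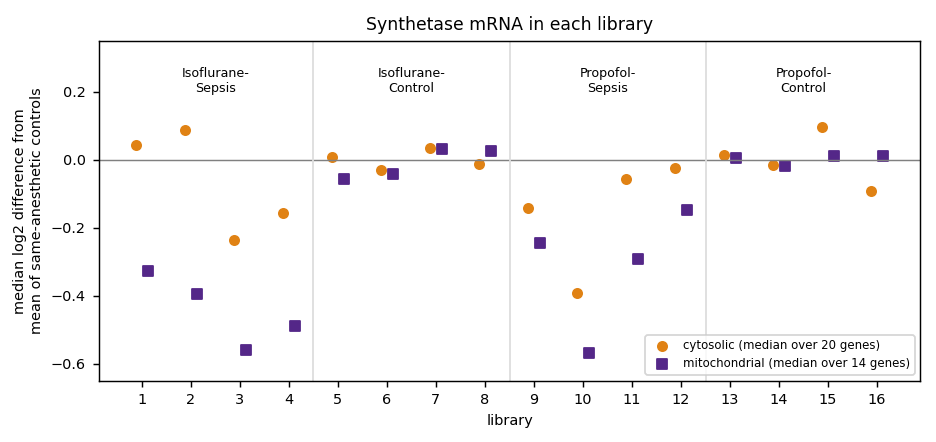
Median log2 difference of the 20 cytosolic members (circles) and the 14 mitochondrial members (squares) of each library from the mean of the control libraries of the same anesthetic. All 8 sepsis libraries have a mitochondrial median below 0, from -0.15 in library 12 to -0.57 in library 10, and in each of the 8 the mitochondrial median lies below the cytosolic one.

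Cell types other than hepatocytes also contribute to bulk liver RNA, in which fewer cells of a type and less RNA per cell cannot be told apart. Summed hepatocyte markers were between 116800 and 125700 CPM in Isoflurane-Sepsis and between 140400 and 151500 in Isoflurane-Control, with 4 of 8 called lower and 0 higher. Under propofol they were between 95780 and 105200 CPM in sepsis and between 104800 and 116500 in controls, with 2 of 8 called lower and a slight overlap. Neutrophil and monocyte markers moved the other way, from between 21.33 and 23.67 CPM to between 45.95 and 129.3 under isoflurane (7 of 8 tested called higher), and from between 25.94 and 36.06 to between 48.79 and 62.65 under propofol (4 of 9). None of the 10 neutrophil and monocyte markers was at 0 in a whole group. Endothelial markers were between 109.4 and 127.6 CPM in Isoflurane-Sepsis and between 157.9 and 198.4 in its controls, and between 152.4 and 159.8 and between 184.3 and 224.3 CPM in the propofol groups, with 4 of 6 called lower and 0 higher under isoflurane and 2 lower and 1 higher under propofol. Of the 7 Kupffer cell markers 5 were called higher and 1 lower under isoflurane and 2 higher and 1 lower under propofol. Their sums overlapped between sepsis and control, at between 314.2 and 433.8 CPM and between 284 and 356.3 under isoflurane. The 8 lymphocyte markers summed to at most 4.241 CPM in any library, and Klrb1 was at 0 in both isoflurane groups. Summed stellate cell and cholangiocyte markers overlapped in both comparisons (stellate cells 2 higher and 1 lower of 5 tested under isoflurane and 0 and 2 under propofol, cholangiocytes 1 and 0 of 2, and 0 and 0), and Col1a2 was at 0 in all 4 groups. The part of these cell types in the synthetase values was not tested.

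Enzymes for the same amino acid could be set side by side across the compartments in 15 pairs covering 14 amino acids, where Eprs and Fars2 each stand in 2 pairs. Under isoflurane the cytosolic log2 fold change lay above the mitochondrial one in 11 pairs and below it in 4. Under propofol it lay above in 10 and below in 5. The widest gaps under isoflurane were in valine, where Vars was at 0.44 and Vars2 at -0.86, a difference of 1.31, and tryptophan, where Wars was at 0.73 and Wars2 at -0.36. Under propofol the widest was tryptophan, with Wars at 1.28 and Wars2 at -0.18, followed by histidine, with Hars at 0.28 and Hars2 at -0.40. The pairs of Eprs with Pars2, of Farsb with Fars2 and of Yars with Yars2 had the lower value on the cytosolic side under both anesthetics. The gaps are descriptions and were not tested.

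**Figure D4:**
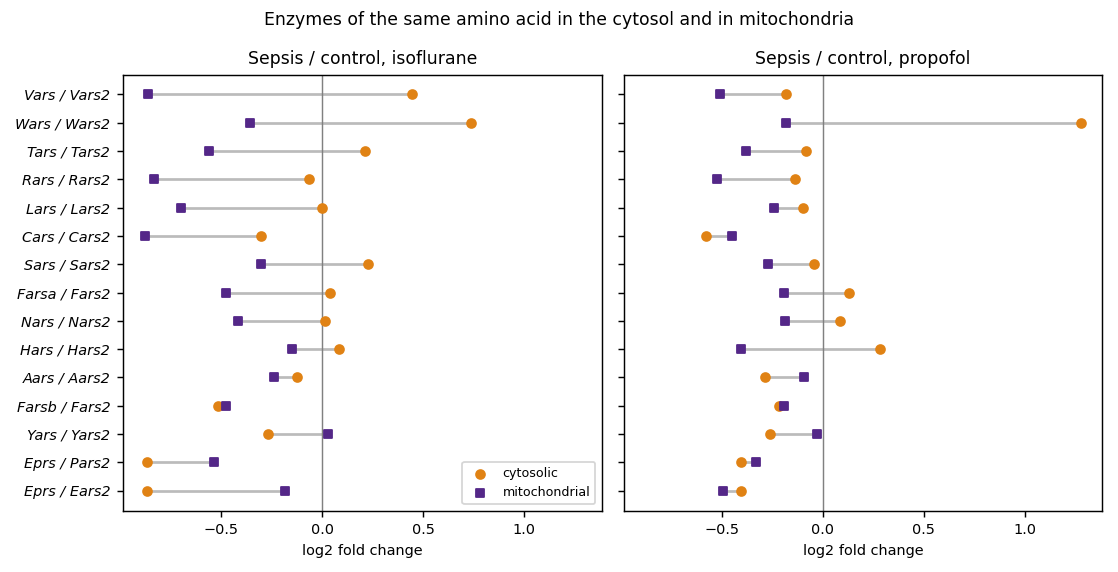
Log2 fold change of sepsis over control for the cytosolic enzyme (orange circles) and the mitochondrial enzyme (purple squares) of each amino acid, under isoflurane (left) and propofol (right), joined by a line for each of the 15 pairs. Orange lies to the right of purple in 11 pairs under isoflurane and 10 under propofol, with the longest lines for valine and tryptophan at left and tryptophan at right.

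Whether sepsis acted differently under the 2 anesthetics was tested as an interaction in 1 fit of the 16 libraries, as the isoflurane log2 fold change minus the propofol one. By edgeR 0 of the 34 members were called, where 1.66% of the 10621 genes tested were called higher and 1.06% lower. At an unadjusted p below 0.05 there were 9 members, against 23.1% of all genes tested. Vars had the smallest adjusted p, with a difference of 0.61 ± 0.16 (SE), adjusted p = 0.0557, and Wars followed with -0.55 ± 0.17 (SE), adjusted p = 0.0767. The Wars fold change was thus the larger under propofol, from a lower control level, and this difference did not pass the threshold. The other members under the unadjusted 0.05 were Eprs (-0.47), Lars2 (-0.46), Mars (0.25), Hars2 (0.25), Sars (0.26), Cars (0.27) and Tars (0.29). The mitochondrial members had a median difference of -0.20 and the cytosolic members 0.06, beside -0.02 over all genes. With a library left out the cytosolic median ran from -7.32e-05 (library 10) to 0.104 (library 3), and was 0.0254, 0.0247, 0.0349 and 0.0224 without library 1, 2, 14 or 15 and 0.095, 0.0909, 0.0968 and 0.0947 without library 4, 11, 12 or 16. DESeq2 called 2 members, Vars (adjusted p = 0.0146) and Wars (0.0271). Without library 1 edgeR called 4 members, Eprs, Vars, Vars2 and Wars, and without library 4 it called Vars alone. The count of 0 thus varied with the tool and the libraries used. The shares of all genes called in these other fits are not given here, so the added calls cannot be set against them.

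Without sepsis the synthetases already differed between the anesthetics. In Isoflurane-Control against Propofol-Control, 16 of 20 cytosolic members were called lower and 2 higher, and 7 of 14 mitochondrial members lower and 0 higher, while 21.7% of the 10314 genes tested were called lower and 21.6% higher. The median log2 fold change of isoflurane over propofol was -0.30 for the cytosolic and -0.22 for the mitochondrial members, beside -0.00049 over all genes. Vars differed most among those lower, at 44.6, 46.1, 49.3 and 52.1 CPM against 90.5, 81.1, 97.8 and 78.1, a log2 fold change of -0.85 ± 0.077 (SE), adjusted p = 2.31e-05. Ears2, the mitochondrial glutamate enzyme and the member with the lowest counts, followed at -0.67 (adjusted p = 0.00524). Gars, which charges glycine in both compartments, was at 129, 129.9, 132 and 130.3 CPM against 196, 216, 221 and 192 (-0.66 ± 0.056 (SE), adjusted p = 1.64e-05). None of these 3 genes had overlapping control groups. Among the lower calls, that of Yars2 was kept in 8 of 15 alternatives and that of Sars2 in 10. With all 16 libraries in 1 fit, 20 members were called in place of 25, with 13 cytosolic and 6 mitochondrial members lower. The share of all genes called in that fit is not given here. The 2 called higher were Wars (0.76 ± 0.079 (SE), adjusted p = 4.78e-05) and Eprs (0.17 ± 0.053 (SE), adjusted p = 0.0251), the latter lost in 6 of 15 alternatives, among them those without library 5, 7, 13 or 16, which left 1 cytosolic member called higher. These same control libraries are the baselines of the sepsis comparisons, so the comparisons are not independent. When totals alone scaled the libraries, the all-gene median moved to -0.15 and the cytosolic and mitochondrial medians to -0.44 and -0.37. Such scaling moves all genes by about the same amount, so it cannot test the gap between members and all genes. Hepatocyte markers summed to between 140400 and 151500 CPM in Isoflurane-Control and between 104800 and 116500 in Propofol-Control, with 6 of 8 called higher and 1 lower. Neutrophil and monocyte markers summed to between 21.33 and 23.67 CPM against between 25.94 and 36.06, without overlap, with 4 of 8 tested called lower and 0 higher. Kupffer cell markers, at between 284 and 356.3 against between 340.9 and 386 CPM, had 3 of 7 called lower and 0 higher. The part of these markers in the differences was not tested.

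**Figure D5:**
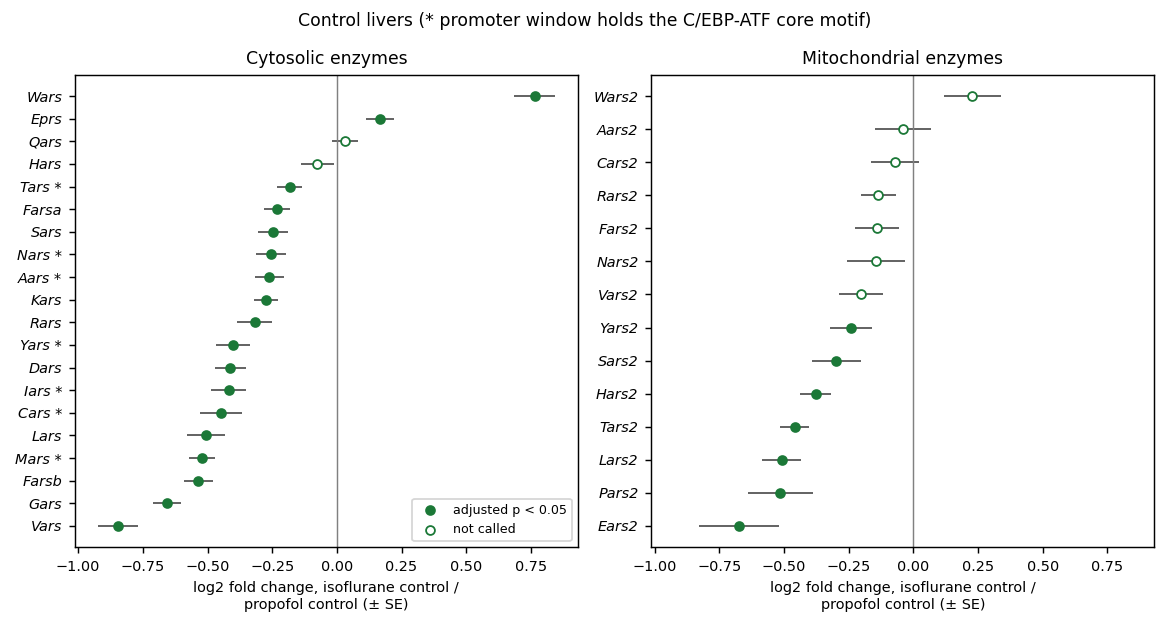
Log2 fold change of Isoflurane-Control over Propofol-Control for the cytosolic members (left) and the mitochondrial members (right), with bars for ± SE, filled points for an adjusted p below 0.05, and a star on members whose promoter window holds the motif TGATGNAA. Wars (0.76) and Eprs (0.17) are the filled points to the right of 0, against 16 cytosolic and 7 mitochondrial filled points to the left.

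ATF4 is translated when kinases phosphorylate the initiation factor eIF2, and it raises genes of amino acid supply together with many cytosolic synthetases. Of 27 tested genes on a list of Atf4 and its targets, 14 were called higher and 4 lower under isoflurane, with a median of 0.66. The shares over all genes tested were 25.7% higher and 24.4% lower. Called higher with the smallest adjusted p were the amino acid transporters Slc38a2 (1.31 ± 0.13 (SE), adjusted p = 0.000129) and Slc7a1 (1.15) and the lipoprotein receptor Vldlr (1.54). Atf5 (-0.84), a related transcription factor, Fgf21 (-2.66), a hormone of the liver, and Cth (-1.53), which makes cysteine, were called lower. Under propofol 4 were called higher and 6 lower, with a median of -0.21, against 20.4% and 21.7% of all genes tested. Slc38a2 (1.35), the phosphatase subunit Ppp1r15a (1.03) and the transcription factor Cebpb (0.59) were called higher, and Fgf21 (-3.42), Atf5 (-0.67) and the pseudokinase Trib3 (-1.25) lower. In the controls, isoflurane against propofol, 20 of the 27 were called lower and 2 higher, with a median of -0.76, against 21.7% and 21.6% of all genes. Those lower included the serine synthesis enzymes Phgdh (-1.65), Psat1 (-1.50) and Psph (-1.02). Atf4 itself was at -0.08 (adjusted p = 0.452) in the controls. In sepsis Atf4 was at 0.66 (adjusted p = 0.00127) under isoflurane and 0.21 (adjusted p = 0.106) under propofol. Of the 4 eIF2 kinases 1 was called higher and 1 lower under isoflurane (median 0.06) and 2 higher and 1 lower under propofol (median 0.12). Eif2ak3 (PERK, of the endoplasmic reticulum) was called higher in sepsis under both anesthetics (0.86 and 0.71). Eif2ak4 (GCN2, which senses uncharged tRNA) was called lower under both (-0.51 and -0.60), and Eif2ak2, activated by double-stranded RNA, higher under propofol (0.30). In Isoflurane-Control against Propofol-Control, 2 of the 4 kinases were called higher and 0 lower, namely Eif2ak3 (0.64) and Eif2ak4 (0.30).

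The promoters of the members were read from RefSeq (build GRCr8), as windows of 250 bases before to 50 bases after the annotated start of the gene, for the 31 members with an entry. Dars, Gars and Rars had none. They were searched on both strands for TGATGNAA, the core of the composite C/EBP-ATF element through which ATF4 acts. It was present in 7 of 17 cytosolic windows (41.2%: Aars, Cars, Iars, Mars, Nars, Tars and Yars) and 0 of 14 mitochondrial windows, against 3.98% of 33469 promoter windows of all genes. Below are the windows of Eprs, Wars and Cars, the called cytosolic members with the smallest adjusted p under isoflurane, and that of Aars, chosen after its match was seen because it holds 2 matches. They run 5′ to 3′ on the strand of the gene, from 250 bases before to 30 bases after the start, and capitals mark a match to TGATGNAA, which reads TTNCATCA where it lies on the opposite strand.
Eprs: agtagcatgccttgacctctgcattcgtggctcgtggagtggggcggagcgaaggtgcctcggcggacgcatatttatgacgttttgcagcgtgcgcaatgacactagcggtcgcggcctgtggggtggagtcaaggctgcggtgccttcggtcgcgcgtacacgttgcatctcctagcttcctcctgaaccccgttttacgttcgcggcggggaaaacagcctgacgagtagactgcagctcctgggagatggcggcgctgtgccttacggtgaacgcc
Wars: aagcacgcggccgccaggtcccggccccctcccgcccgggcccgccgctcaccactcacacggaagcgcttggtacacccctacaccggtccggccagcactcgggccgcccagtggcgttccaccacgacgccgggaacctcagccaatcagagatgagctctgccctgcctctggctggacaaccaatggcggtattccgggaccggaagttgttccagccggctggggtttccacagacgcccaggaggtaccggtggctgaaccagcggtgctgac
Cars: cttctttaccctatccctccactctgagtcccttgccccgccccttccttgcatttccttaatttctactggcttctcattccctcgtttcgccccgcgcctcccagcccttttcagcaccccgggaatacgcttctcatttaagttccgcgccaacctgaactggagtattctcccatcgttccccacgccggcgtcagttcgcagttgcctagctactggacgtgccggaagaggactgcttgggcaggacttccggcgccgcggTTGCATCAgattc
Aars: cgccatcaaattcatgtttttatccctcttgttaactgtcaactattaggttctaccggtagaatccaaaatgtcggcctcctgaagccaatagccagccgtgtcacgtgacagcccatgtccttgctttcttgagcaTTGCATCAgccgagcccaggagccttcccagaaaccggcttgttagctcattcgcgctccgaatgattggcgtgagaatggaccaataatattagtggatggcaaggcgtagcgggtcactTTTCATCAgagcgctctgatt
The windows lie at chr13:99433003-99433282 on the plus strand for Eprs, chr6:133571616-133571895 on the minus strand for Wars, chr1:208225340-208225619 on the minus strand for Cars and chr19:55908232-55908511 on the plus strand for Aars. Eprs and Wars, the members with the largest fall and rise among the cytosolic enzymes under isoflurane, had no match in their windows. The match of Cars begins 17 bases after the start, and those of Aars 112 bases before and 9 bases after it. The 7 cytosolic members with a match had a median log2 fold change of -0.11 under isoflurane (0 called higher, 1 lower), -0.26 under propofol (0 and 3) and -0.40 in the controls, isoflurane against propofol (0 and 7). The 10 without a match had medians of 0.05 (3 higher, 2 lower), -0.03 (3 and 1) and -0.24 (2 and 6). Over all genes tested, 25.7% were called higher and 24.4% lower under isoflurane, and 20.4% and 21.7% under propofol. In the controls the shares were 21.6% and 21.7%, and 16 of all 20 cytosolic members were called lower there. Members with and without a match were not tested against each other. A match is a run of letters and not a site shown to be bound.

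Because Wars is known as an interferon-induced synthetase, a list of interferon-induced genes was set beside it. Of 17 tested genes 7 were called higher and 3 lower under isoflurane, with a median of 0.44, and 2 higher and 5 lower under propofol, with a median of -0.27. The guanylate-binding protein gene Gbp2 (1.54 and 0.62) and the chemokine gene Cxcl10 (3.77 and 1.41) were called higher under both anesthetics, and Tap1 (0.53), a peptide transporter of antigen presentation, under isoflurane. Called lower under isoflurane were the chemokine gene Cxcl11 (-1.67) and the antiviral genes Oas1a (-1.28) and Mx2 (-0.77). Under propofol Ifit2 (-0.96), also an antiviral gene, Oas1a (-1.49) and Mx2 (-1.18) were called lower. Over all genes tested 20.4% were called higher and 21.7% lower under propofol, and 25.7% and 24.4% under isoflurane. In Isoflurane-Control against Propofol-Control 13 of 17 were called lower and 0 higher (median -0.74), against 21.7% and 21.6% of all genes. Wars was called higher in that comparison. The letters of an interferon-stimulated response element (GAAA, any 2 bases and GAAA again, on either strand), a motif chosen after values had been seen, were in 0 of the 31 member windows and 3.92% of all windows. Those of a gamma-activated site (TTCNNNGAA), chosen likewise, were in 5 of 31 (16.1%; Aars, Lars, Nars2, Qars and Wars2) and 8.87% of all windows.

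Other genes of tRNA charging were counted from short lists. Over all genes tested, the shares called higher and lower were 25.7% and 24.4% under isoflurane and 20.4% and 21.7% under propofol. Of 3 mitochondrial charging partners, 2 were called lower and 0 higher under each anesthetic, with medians of -0.77 under isoflurane and -0.48 under propofol. They were Mtfmt, which formylates the initiator tRNA (-0.81 and -0.69), and Qrsl1, a subunit of the amidotransferase that makes mitochondrial glutamine tRNA (-0.77 and -0.48). Of 8 genes of tRNA processing and proofreading, 4 were called lower and 0 higher under isoflurane and 2 lower and 0 higher under propofol, with medians of -0.40 and -0.21. Dtd2 (-1.33 and -0.91) and Aarsd1 (-0.63 and -0.32), which remove wrongly attached amino acids, were lower under both, and Dtd1 (-0.60), a further proofreading enzyme, under isoflurane. Of the 3 scaffold proteins of the multisynthetase complex, Aimp2 was called higher (0.48 and 0.26) and Aimp1 lower (-0.32 and -0.38) under both anesthetics, and Eef1e1 was not called, at 0.18 and -0.19, values that were also the medians of the list.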

How the data were processed

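Polyadenylated liver RNA was sequenced in 16 libraries of 3 pooled rats with a kit that keeps the strand. The authors deposited raw counts, whole numbers of reads on each of 17055 gene symbols. The submitters' processing notes name STAR and the build rn5, and the counting program, its strand setting, its treatment of pseudogene copies and the annotation are not given in the sources that were used. Entries for reads on no gene (21.61% to 25.39% of reads) or on several genes (1.074% to 1.351%) were left out. Libraries of a group differed by a chi-square per degree of freedom of at least 3.351, so none was a copy of another.

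Groups came from the sample labels. Counts were tested with edgeR 4.0.16 in R 4.3.3 (TMM scaling, filterByExpr with a minimum count of 10 and total of 15, glmQLFit and glmQLFTest), with Benjamini-Hochberg adjustment over all genes tested, in fits of 8 libraries, or of all 16 for the interaction. The scripts were tested on simulated data in which 200 genes were changed by 1 log2 unit. The fits recovered 83% of these under isoflurane, 77% under propofol, 59% in the interaction and 92% in the controls. False calls among those called were 6.74%, 1.91%, 13.2% and 5.64%, in that order. Alternatives were RLE size factors, library totals alone, DESeq2 1.42.0 (the tool of the study), no filter on low counts, a minimum mean CPM of 1, libraries thinned to 14199422 reads, all 16 libraries in 1 fit, and each library left out.

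The members and gene lists were chosen with earlier results of these data known. Some listed genes are not reported here and were left out of the list counts. Levels in every library are given for the 6 called members with the smallest adjusted p in each sepsis comparison and direction and for called members whose direction differed between these comparisons, and each list is named by its 3 called genes of smallest adjusted p, by sepsis comparison and direction. Other genes with values (Wars2, Nars, Ears2 and those named in the controls) were chosen after their values were seen. Promoter windows were matched by symbol to RefSeq (33 of 34 members were found there), whose build differs from that of the counts.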

Additional observations from a re-analysis of the deposited data

Results flagged for a closer look

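In each group of 4 libraries, a library was singled out where its gap to the nearest other library as a share of the range of the group, exceeded Dixon's 95% critical value, which chance does in about 1 in 20 groups. Of 136 combinations of member and group, 7 were singled out. In Isoflurane-Sepsis, Cars was at 53.4 CPM in library 3 and between 56.8 and 57.3 in the other libraries. In Isoflurane-Control, Wars was at 168 CPM in library 5 against 147 to 150.3 in the others, and Hars2 was at 27.03 CPM in library 5 against 27.21 to 27.22. Library 6 of the same group had 119 CPM of Mars, where the others had between 127.5 and 129 CPM, and 75.6 CPM of Qars, where the others had between 73.3 and 73.6. Library 7 had 4.95 CPM of Pars2, and the other controls between 4.14 and 4.23. In Propofol-Sepsis, library 10 had 23.2 CPM of Tars2, and the other libraries had between 30.98 and 32.1.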

How the results depend on the processing

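Shares of all genes called in the alternative fits are not given here, and a fit with a library left out has fewer to test with. With each library left out in turn, called members numbered 9 to 15 under isoflurane, 9 to 15 under propofol, 22 to 25 in the controls and 0 to 4 in the interaction, where DESeq2 called 2. Cytosolic members called higher then numbered 1 to 3 under isoflurane, 1 to 3 under propofol and 1 to 2 in the controls. Under propofol this count was 1 without library 11, 12, 14 or 15, 1 with library totals alone and 1 with no filter on low counts. In the controls it was 1 without library 5, 7, 13 or 16, 1 with library totals alone and 1 with all 16 libraries in 1 fit. That last fit called 20 members in the controls, where the main fit called 25. Library totals alone also called 8 mitochondrial members lower under propofol, where the median of all genes was -0.0558. In all 15 alternatives Cars, Cars2, Eprs, Fars2, Lars2, Rars2, Tars2, Vars2 and Wars were called under isoflurane, and Aars, Cars, Eprs, Hars2, Mars, Rars2, Tars2, Vars2 and Wars under propofol. In no alternative did a member change sign in a sepsis comparison in which it was called, but members near 0 did. Under isoflurane, the scaling by library totals put Farsa at -0.0289, Kars at -0.0133, Lars at -0.064, Nars at -0.0486, Qars at -0.0312 and Yars2 at -0.039 on the log2 scale. With no filter on low counts these were Lars at -0.0284, Nars at -0.0123 and Yars2 at -0.00246. Lars was at -0.00175 with a minimum mean CPM of 1 and at -0.0171 when thinned. With a library left out, values under isoflurane ran from -0.0331 to 0.0726 for Farsa, -0.0318 to 0.187 for Hars, -0.000762 to 0.102 for Kars, -0.058 to 0.0684 for Lars, -0.133 to 0.13 for Nars and -0.0662 to 0.131 for Yars2. Under propofol they ran from -0.159 to 0.00154 for Aars2, -0.0498 to 0.0507 for Kars, -0.0887 to 0.0117 for Sars and -0.106 to 0.0873 for Yars2. No paired analysis was possible because each rat belonged to a single group and no pairing of pools is given. The number of pools limits the smallest change that can pass, and the cause of these changes was not tested.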
